A study of Mus musculus with 6 samples.

Results

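The glucocorticoid receptor and the genes of its response were examined in whole lung of mouse embryos at E18.5, shortly before birth. The 10 genes were taken by name, and no threshold on their values was applied, although earlier results of these data were known. They comprise the receptors *Nr3c1* and *Nr3c2*, the steroid enzymes *Hsd11b1* and *Hsd11b2*, and the response genes *Fkbp5*, *Tsc22d3*, *Zbtb16*, *Klf9*, *Sgk1* and *Dusp1*. All 10 were measured among 19938 genes, each by a single probe set annotated to 1 gene symbol. There were 3 WT and 3 *Tnrc6a* null lungs, 1 embryo on each array, all at the same stage on a C57Bl/6 background. The null embryos were *Tnrc6a* gt/gt, homozygous for a gene trap that places β-galactosidase in the *Tnrc6a* (GW182) locus, and the WT embryos were their littermates. The trap is inherited through the germline, so *Tnrc6a* is disrupted in every cell and not in a chosen cell type of the lung. The sources used here name no steroid treatment, and no label records hormone levels, sex or hour of dissection.

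Corticosterone, the main glucocorticoid of the mouse, enters cells and binds the glucocorticoid receptor, which then leaves its chaperones, moves to the nucleus and raises or lowers the transcription of target genes. Its level in the fetus climbs before birth and drives late lung maturation, in which the mesenchyme thins, surfactant is made and the epithelium begins to absorb liquid, and mice without the receptor die soon after birth with lungs that do not expand. TNRC6A, the protein lost in the null embryos, binds Argonaute in the silencing of microRNA targets. The comparison of null with WT lungs asks which RNAs differ in level when TNRC6A is missing.

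The values are processed array signals on a log scale. The labels name base 2, which the values do not settle, so what follows are differences of deposited log values, taken as *Tnrc6a* null minus WT, and no folds are given. *Tnrc6a* itself lay at 7.38, 7.13 and 7.18 in WT and 5.45, 5.04 and 5.40 in null lungs, a difference of -1.93 (standard error 0.128, adjusted p = 0.00312 from limma), and was the only gene of the 19938 past an adjusted p of 0.05 in that fit. Among the tissue markers, mean signals over the 6 lungs were 11.75 for the surfactant gene *Sftpc*, 8.39 for the lung transcription factor gene *Nkx2-1*, 10.11 for the endothelial *Cdh5* and 9.10 for the mesenchymal *Col1a1*, and the defining markers of lung epithelium, endothelium and mesenchyme were thus present. WT replicate 1 and null replicate 3 are treated as 2 lungs that stand apart, a pair picked from these same data. Over all genes the correlation between the 2 was 0.992. It was 0.987 and 0.988 for WT replicate 1 with the other WT lungs. For null replicate 3 with the other null lungs it was lower, at 0.979 and 0.983. Null replicate 1 was not set apart, although its values were 0.982 with WT replicate 1, 0.979 with null replicate 3 and 0.984 to 0.990 with the remaining lungs. Null replicate 3 also had the highest signals of the liver genes *Alb* (7.61, against 4.78 to 6.26 in the other lungs) and *Afp* (5.10, against 3.84 to 4.23), and the mean of the 3 liver markers stood at 0.984 there against -0.449 to 0.168 in the other lungs, relative to the mean of the 6. The part of these correlations and of the liver signals in the results was not tested. The differences of the 10 genes and the medians of the lists are given below with and without WT replicate 1 and null replicate 3.

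None of the 10 glucocorticoid genes passed an adjusted p of 0.05 between *Tnrc6a* null and WT lungs, where 0.00502% of all genes did. On average 8 of the 10 were lower in the null lungs, all 6 response genes among them, against 49.8% of all genes. The median difference of the 10 genes was -0.165, against 0.00 over all genes. It was -0.127 with quantile normalization over all probe sets, -0.108 over those with 1 gene symbol and -0.17 without WT replicate 1 and null replicate 3. Most of the 10 genes are bright, so the shares over all genes are not a like background. When all genes were put into 10 groups by signal, the median difference was -0.0567 in the second brightest and -0.0633 in the brightest. At an unadjusted p under 0.05, 2 of the 10 were lower (*Nr3c1* and *Tsc22d3*), against 2.96% of all genes, and none was higher. Neither gene kept that level under every alternative. With quantile normalization over all probe sets the unadjusted p from limma was 0.123 for *Nr3c1* and 0.0587 for *Tsc22d3*, with eBayes without a trend it was 0.082 and 0.0611, and with the replicate block it was 0.0894 for *Nr3c1*. With 1 lung left out, *Nr3c1* lost it without WT replicate 1, WT replicate 2, null replicate 1 or null replicate 2, and *Tsc22d3* without WT replicate 2, WT replicate 3, null replicate 1 or null replicate 3, with p from limma of 0.0849 to 0.124 and 0.0874 to 0.121. With the methods' t-test, 2 also lay under that level, *Nr3c1* and *Hsd11b1*, as did 1102 of the 19938 genes, and 0 after Benjamini-Hochberg adjustment. The genotypes did not overlap, with the null lungs lower, in 2 of the 10 (*Nr3c1* and *Hsd11b1*), against 5.51% of all genes. Without WT replicate 1 and null replicate 3 the genes lower on average numbered 9 and those without overlap 5 (*Nr3c1*, *Hsd11b1*, *Tsc22d3*, *Klf9* and *Sgk1*), where 25.3% of all genes do not overlap with 2 lungs against 2, and again none passed the adjusted threshold.

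**Figure D1:**
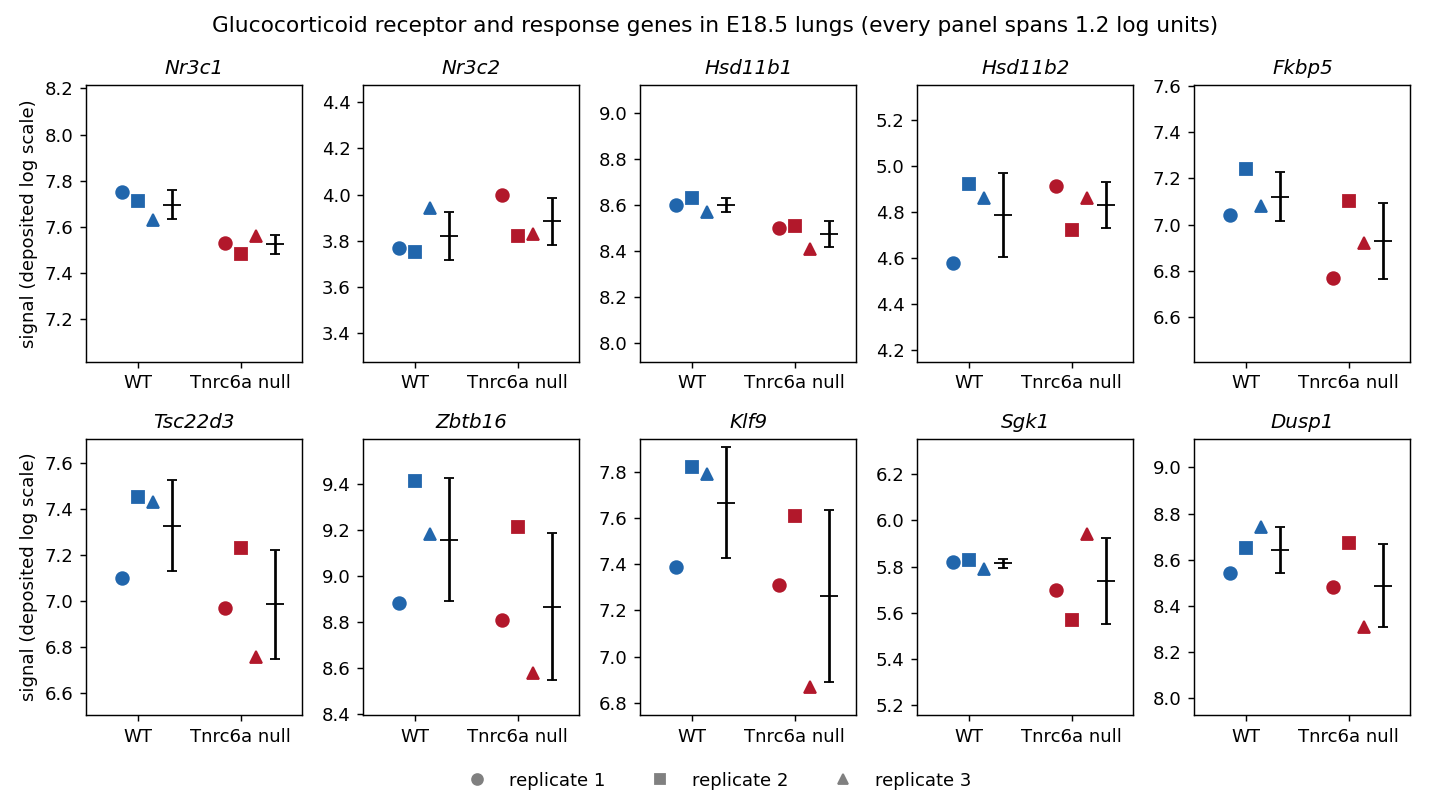
Signal of the 10 genes in each E18.5 lung. The vertical axes give the signal on the deposited log scale and every panel spans 1.2 units, each point is 1 lung with its replicate number as its shape, and bars show mean and SD per genotype (n = 3). For *Nr3c1* and *Hsd11b1* all null points are under all WT points, and the genotypes overlap for the other 8 genes.

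*Nr3c1*, which encodes the glucocorticoid receptor, was lower in each null lung by a small amount. Its signal was 7.75, 7.71 and 7.63 in WT and 7.53, 7.48 and 7.56 in null lungs. The gap between the lowest WT and the highest null lung was narrow, and the 3 lungs of each genotype lay close together. The difference was -0.17 (standard error 0.0733, 95% interval -0.34 to -0.01), from 7.70 ± 0.06 (SD, n = 3) to 7.52 ± 0.04 (SD, n = 3). In limma its unadjusted p was 0.0433 and its adjusted p 0.89. It was the 928th smallest p of the 19938 genes. The difference ran from -0.207 to -0.147 when 1 lung was left out in turn, was -0.165 without WT replicate 1 and null replicate 3, and shrank to -0.123 with quantile normalization over all probe sets.

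*Nr3c2* encodes the mineralocorticoid receptor, which binds corticosterone as well as aldosterone. It lay at 3.77, 3.75 and 3.94 in WT and 4.0, 3.82 and 3.83 in null lungs. These values are low on this array and the genotypes overlap, with the highest value in null replicate 1. The difference was 0.06 (standard error 0.132, 95% interval -0.24 to 0.36, adjusted p = 0.964 from limma), and with quantile normalization it turned to -0.037. It was 0.065 without WT replicate 1 and null replicate 3.

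The 11β-hydroxysteroid dehydrogenases set how much active hormone reaches the receptors within a cell. *Hsd11b1* encodes the enzyme that regenerates corticosterone from its inert 11-keto form, and *Hsd11b2* the enzyme that inactivates it. *Hsd11b1* stood at 8.60, 8.63 and 8.57 in WT and 8.50, 8.51 and 8.41 in null lungs. Every null lung was below every WT lung, and the lungs of a genotype differed by at most 0.10. The difference of *Hsd11b1* was -0.13 (standard error 0.0687, 95% interval -0.28 to 0.03, adjusted p = 0.89 from limma). It was -0.095 without WT replicate 1 and null replicate 3 and -0.0775 with quantile normalization over the probe sets with 1 gene symbol. The means were 8.60 ± 0.03 (SD, n = 3) in WT and 8.47 ± 0.06 (SD, n = 3) in null lungs. *Hsd11b2* stood at 4.58, 4.92 and 4.86 in WT and 4.91, 4.72 and 4.86 in null lungs, which overlap throughout. Its difference of 0.04 (95% interval -0.25 to 0.33, adjusted p = 0.975 from limma) turned to -0.008 with quantile normalization over all probe sets and to -0.075 without WT replicate 1 and null replicate 3, WT replicate 1 being its lowest lung.

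The endothelial markers, like *Nr3c1* and *Hsd11b1*, were lower in the null lungs. Among the null lungs both markers and *Hsd11b1* were lowest in null replicate 3, where *Nr3c1* was highest. Both *Pecam1* (8.85 to 8.95 in WT, 8.68 to 8.77 in null lungs) and *Cdh5* (10.19 to 10.25 in WT, 9.92 to 10.09 in null lungs) were lower in every null lung, at -0.18 and -0.23, and the mean of these 2 markers stood 0.0767 to 0.137 above the mean of the 6 lungs in WT and at -0.158 to -0.0283 in null lungs. In the mesenchyme *Pdgfra* stood at -0.18 and *Col1a1* at -0.06, and both overlapped. In whole lung, fewer cells of a type and less RNA per cell cannot be told apart, and the part of these cell types in the values of the receptor and the enzyme was not tested.

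**Figure D2:**
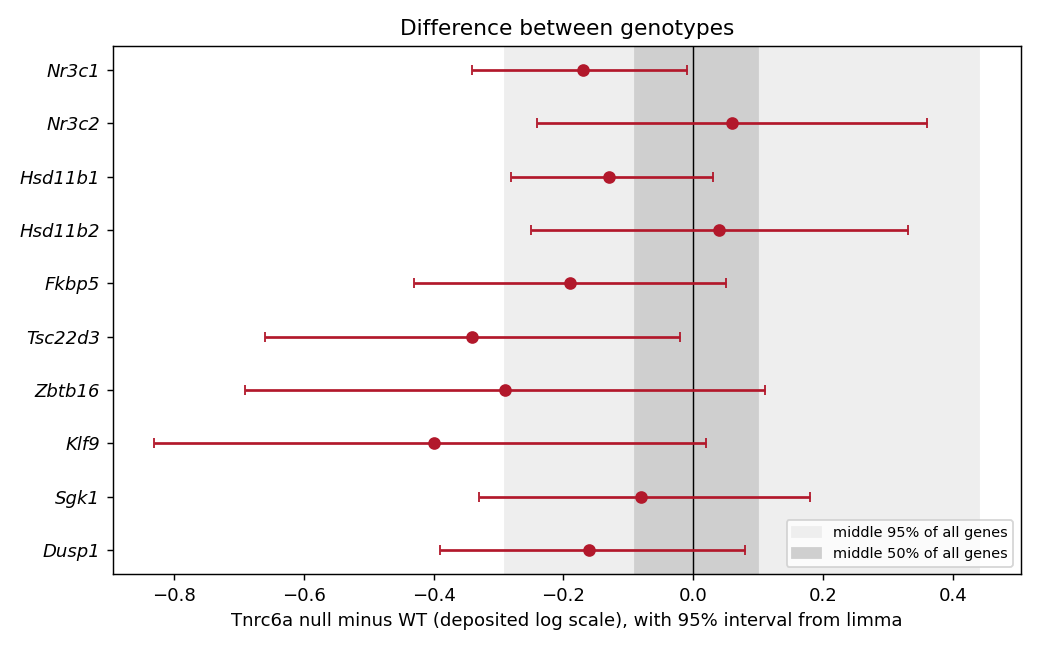
Difference between genotypes for the 10 genes. The horizontal axis is the null mean minus the WT mean on the deposited log scale, points are the estimates with their 95% interval from limma, and the shaded bands hold the middle 95% (-0.29 to 0.44) and 50% (-0.09 to 0.10) of all genes. *Klf9*, *Tsc22d3* and *Zbtb16* lie at or beyond the lower edge of the wide band, and only the intervals of *Nr3c1* and *Tsc22d3* do not reach 0.

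*Klf9*, a zinc finger transcription factor gene and a direct target of the receptor, had the most negative difference of the 10. It lay at 7.39, 7.82 and 7.79 in WT and 7.31, 7.61 and 6.87 in null lungs. WT replicate 1 fell among the null lungs, and null replicate 3 was far below every other lung. The difference was -0.40 (standard error 0.187, 95% interval -0.83 to 0.02, adjusted p = 0.89 from limma), at -0.207 without null replicate 3 and -0.577 without null replicate 2. Without WT replicate 1 and null replicate 3 it was -0.345 (adjusted p = 0.156 from limma).

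*Tsc22d3* encodes GILZ, a leucine zipper protein through which glucocorticoids restrain inflammatory transcription factors. Its signal was 7.10, 7.45 and 7.43 in WT and 6.97, 7.23 and 6.76 in null lungs. Only null replicate 2 reached above the lowest WT lung, again WT replicate 1. The difference was -0.34 (standard error 0.139, 95% interval -0.66 to -0.02), from 7.33 ± 0.20 (SD, n = 3) to 6.99 ± 0.24 (SD, n = 3). In limma its unadjusted p was 0.0381 and its adjusted p 0.89. It ran from -0.462 to -0.227 when 1 lung was left out in turn and was again -0.34 without the 2 lungs that stand apart (adjusted p = 0.146 from limma).

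*Zbtb16*, the gene of the transcriptional repressor PLZF, stood at 8.88, 9.41 and 9.18 in WT and 8.81, 9.21 and 8.58 in null lungs. Null replicate 2 was above WT replicate 3, and null replicate 3 was the lowest lung. The difference was -0.29 (standard error 0.175, 95% interval -0.69 to 0.11, adjusted p = 0.892 from limma). It ran from -0.147 without null replicate 3 to -0.462 without null replicate 2, and was -0.285 without WT replicate 1 and null replicate 3.

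*Fkbp5* encodes a co-chaperone that lowers the affinity of the receptor for its hormone and so closes a feedback loop. It lay at 7.04, 7.24 and 7.08 in WT and 6.77, 7.10 and 6.92 in null lungs. Here null replicate 1, not replicate 3, was the lowest. The difference was -0.19 (standard error 0.105, 95% interval -0.43 to 0.05, adjusted p = 0.89 from limma). Leaving out null replicate 1 took it to -0.11 and null replicate 2 to -0.275, and it was -0.225 when both lungs that stand apart were dropped.

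*Dusp1*, whose product switches off MAP kinases, stood at 8.54, 8.65 and 8.74 in WT and 8.48, 8.67 and 8.31 in null lungs. The genotypes overlapped, and the difference of -0.16 (standard error 0.103, adjusted p = 0.897 from limma) was -0.0683 without null replicate 3. Leaving out null replicate 2 took it to -0.248, and it was -0.12 when both lungs that stand apart were dropped. *Dusp1* is also induced by stress and growth signals, as immediate early genes are. Of 12 immediate early genes, 6 had a lower and 6 a higher mean in null lungs, the median difference was 0.00 (-0.0675 without WT replicate 1 and null replicate 3), and none lay under an unadjusted p of 0.05. *Jun* stood at -0.20, *Egr2* at -0.18, *Egr1* at 0.18 and *Myc* at 0.19.

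*Sgk1* encodes a kinase that keeps the epithelial sodium channel at the cell surface. It lay at 5.82, 5.83 and 5.79 in WT and 5.70, 5.57 and 5.94 in null lungs. The WT lungs were almost level, and the null lungs spread to both sides of them, with null replicate 3 the highest of all. The difference was -0.08 (standard error 0.111, 95% interval -0.33 to 0.18, adjusted p = 0.942 from limma) and turned to 0.007 without null replicate 2. It was -0.178 without null replicate 3 and -0.175 without WT replicate 1 and null replicate 3.

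Differences over all genes went with the signal, which bears on the reading of these sizes. When all genes were ranked by mean signal into 10 groups, the median difference was -0.0567 in the second brightest group, which holds *Nr3c1*, *Fkbp5*, *Tsc22d3* and *Klf9*, and -0.0633 in the brightest, which holds *Hsd11b1*, *Zbtb16* and *Dusp1*. All 7 of these genes stood below the median of their group. In the group of *Nr3c2* that median was 0.0633, beside 0.06 for *Nr3c2* itself. Quantile normalization over all probe sets, which evens out the distributions of the arrays, left -0.353 for *Klf9*, -0.302 for *Tsc22d3*, -0.276 for *Zbtb16*, -0.156 for *Fkbp5* and -0.131 for *Dusp1*.

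The receptor binds DNA as a dimer at a palindrome of 2 half-sites, for which TGTTCT and its reverse complement are the best-known letters. The 250 bases before each transcription start in RefSeq (GRCm38.p6) were searched for it, and 14 such windows were found for 7 of the 10 genes, 6 of them for *Sgk1* and 3 for *Tsc22d3*. No window was used here for *Nr3c1*, *Hsd11b2* and *Zbtb16*. The half-site TGTTCT, searched on both strands, lay in 4 of the 14 windows (3 of *Sgk1* and 1 of *Tsc22d3*) and in 16.1% of all 32851 windows. The looser palindrome GNACANNNTGTNC, which reads the same on both strands and overlaps the half-sites, lay in 1 window of *Sgk1* and in 0.387% of all windows. Shown are that *Sgk1* window, the *Tsc22d3* window with a half-site and, for contrast, the window of *Klf9*, the gene with the most negative difference, which holds neither motif. Each is written 5′ to 3′ on the strand of the gene, and capitals mark half-sites.
Sgk1, chr10:21993640-21993889, plus strand: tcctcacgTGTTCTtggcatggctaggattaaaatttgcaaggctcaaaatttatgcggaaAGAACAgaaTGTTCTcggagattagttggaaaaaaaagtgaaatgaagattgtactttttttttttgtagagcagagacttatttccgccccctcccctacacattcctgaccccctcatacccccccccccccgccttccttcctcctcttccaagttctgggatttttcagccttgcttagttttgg
Tsc22d3, chrX:140600523-140600772, minus strand: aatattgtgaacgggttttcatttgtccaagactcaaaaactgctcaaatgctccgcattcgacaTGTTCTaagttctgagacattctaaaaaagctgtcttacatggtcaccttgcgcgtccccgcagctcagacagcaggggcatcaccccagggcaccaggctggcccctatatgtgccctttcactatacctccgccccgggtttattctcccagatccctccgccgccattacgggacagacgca
Klf9, chr19:23140976-23141225, plus strand: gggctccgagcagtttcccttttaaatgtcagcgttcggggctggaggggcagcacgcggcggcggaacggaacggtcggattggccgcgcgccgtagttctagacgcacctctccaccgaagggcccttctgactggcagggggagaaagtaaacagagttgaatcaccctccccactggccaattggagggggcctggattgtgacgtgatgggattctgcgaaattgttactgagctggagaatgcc
In the *Sgk1* window the paired half-sites begin 189 and 180 bases before the start, with a further half-site at 242 bases, and in the *Tsc22d3* window the half-site begins 185 bases before it. A match of letters is a description of the sequence and does not show that the receptor binds there, and many sites of the receptor lie far from promoters, outside the bases searched.

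Several response genes varied together from lung to lung, within as well as between genotypes. *Tsc22d3* and *Klf9* put the 6 lungs in the same order, WT replicate 2 above WT replicate 3, then null replicate 2, WT replicate 1, null replicate 1 and null replicate 3. Taken as deviations from the 6-lung mean, the average of *Fkbp5*, *Tsc22d3*, *Zbtb16*, *Klf9* and *Dusp1* was -0.055, 0.269 and 0.199 in WT and -0.177, 0.119 and -0.357 in null lungs. WT replicate 1 and null replicates 1 and 3 were thus on the low side, WT replicates 2 and 3 and null replicate 2 on the high side. These 5 genes were put together after their values had been seen, so no test was made of their average.

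All 45 pairs of the 10 genes were correlated over the 6 lungs. Among the 10 pairs of these 5 response genes Pearson's r ran from 0.664 to 0.986 and Spearman's rho from 0.714 to 1.00. The closest pair was *Tsc22d3* with *Klf9* (r = 0.986, exact permutation p = 0.00139, adjusted p = 0.0625; rho = 1.00, exact permutation p = 0.00278). For *Zbtb16* with *Klf9* r was 0.955 (rho = 0.943), for *Tsc22d3* with *Zbtb16* 0.954 (rho = 0.943) and for *Klf9* with *Dusp1* 0.967 (rho = 0.829; each r with an adjusted p = 0.0625 from exact two-sided permutation tests, Benjamini-Hochberg over 45 pairs). No pair passed the adjusted threshold, and 9 of the 45 pairs lay under an unadjusted p of 0.05. The 5 genes were grouped because they varied together, so their correlations describe that choice. The 10 correlations were 0.871 to 0.994 without the 2 lungs farthest from the median of the first gene of the pair. They were 0.485 to 0.983 when each lung was taken relative to the mean of its genotype, and 0.591 to 0.981 after quantile normalization. The pattern is also found in other genes, since 4.45% of all genes reached an r of 0.9 or more with *Tsc22d3* and 5.0% with *Klf9*. Of the other 9 glucocorticoid genes 3 did so with either, all of them among the 5 grouped because they varied together.

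*Sgk1*, the sixth response gene, was not put with them. Its r with the 5 response genes ran from -0.517 with *Dusp1* to -0.002 with *Fkbp5*, and none of the 5 lay under an unadjusted p of 0.05 in the exact permutation tests. *Nr3c1* did not follow the response genes either, with an r of 0.291 with *Klf9* and 0.367 with *Tsc22d3*, which turned to -0.772 and -0.808 when each lung was taken relative to the mean of its genotype. *Hsd11b1* came closer, with an r of 0.819 with *Tsc22d3* (exact permutation p = 0.0472, adjusted p = 0.236; rho = 0.829) and 0.953 after quantile normalization, but of 0.338 without the 2 farthest lungs, WT replicate 2 and null replicate 3, on which the relation rests. The genes most like *Nr3c1* over the 6 lungs were *Mta2* (r = 0.99, rho = 0.986), *Cacng7* (r = 0.983, rho = 1.00) and *Bcor* (r = 0.983, rho = 1.00), picked as the highest of all genes and given as a description. *Mta2*, a subunit gene of a chromatin remodelling complex, lay at 8.16, 8.16 and 8.07 in WT and 7.98, 7.95 and 8.0 in null lungs. At 0.9 or more, 0.587% of all genes were this close to *Nr3c1*.

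**Figure D3:**
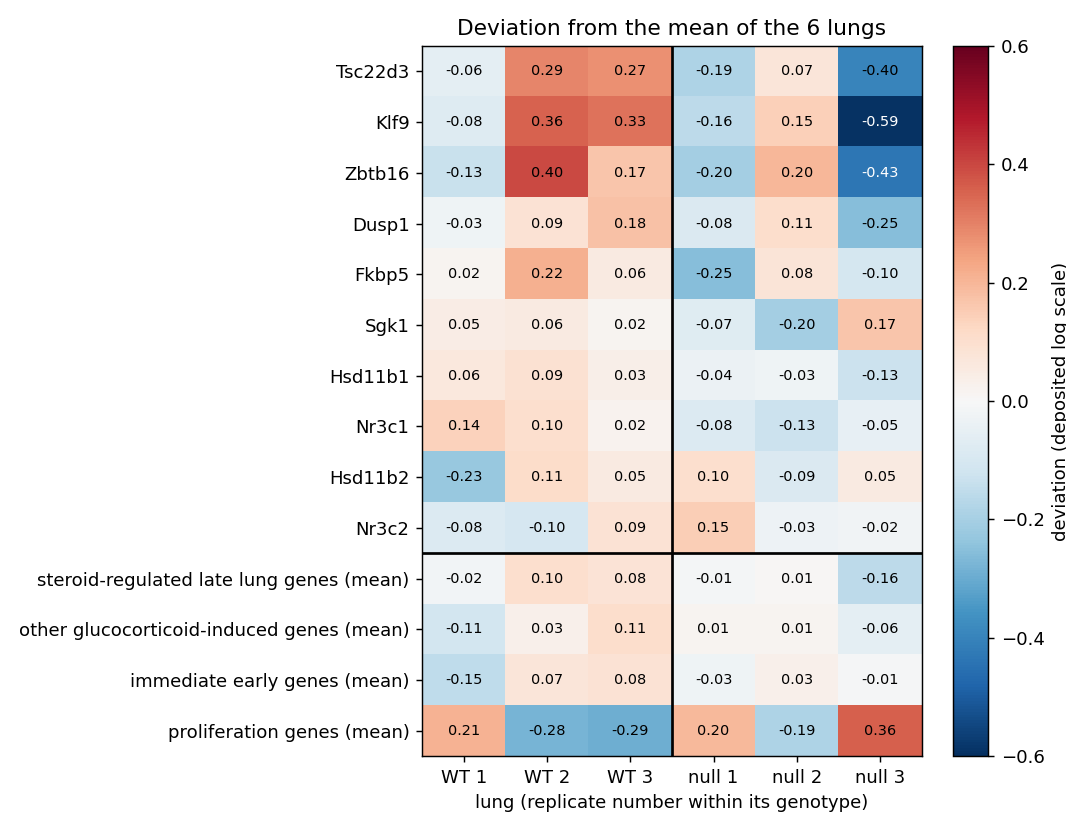
Deviation of each lung from the mean of the 6 lungs for the 10 genes and, below the line, for the mean of 4 gene lists. Columns are lungs and the vertical line parts the genotypes, and colours and printed values give the deviation on the deposited log scale. *Tsc22d3*, *Klf9*, *Zbtb16* and *Dusp1* are high in WT 2, WT 3 and null 2 and low in the other 3 lungs, where the proliferation genes are high.

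Genes through which the steroid acts on the late fetal lung were counted next, from a list of 15 that were all measured. None passed the adjusted threshold. On average 9 were lower and 6 higher in the null lungs, where 49.8% of all genes were lower, with a median difference of -0.14 against 0.00 over all genes. The list was not split by whether the steroid raises or lowers a gene. Its counts and median thus do not give a direction of the steroid response. At an unadjusted p under 0.05, 5 were lower and 1 higher, against 591 lower (2.96%) and 490 higher of the 19938 genes. The median was -0.085 without WT replicate 1 and null replicate 3, and ran from -0.188 to -0.0983 when single lungs were left out. All 3 subunit genes of the epithelial sodium channel, through which the lung absorbs liquid at birth, were lower on average. *Scnn1b* lay at 7.46, 7.67 and 7.65 in WT and 7.15, 7.35 and 7.07 in null lungs. Its null lungs were all below its WT lungs, at a difference of -0.40 (standard error 0.0998, adjusted p = 0.89 from limma). *Scnn1g* stood at -0.24, likewise without overlap, and *Scnn1a* at -0.22 with overlap. The probe sets of *Scnn1g* and *Scnn1b* (10557111 and 10557124) are numbered close to that of *Tnrc6a* (10557233), which *Scnn1a* (10541885) is not. Any part of the trapped locus in the values of *Scnn1g* and *Scnn1b* was not tested. The water channel gene *Aqp1* had the most negative difference of the list, at -0.56 (standard error 0.154, adjusted p = 0.89 from limma), with 9.35, 9.73 and 9.64 in WT and 9.09, 9.26 and 8.68 in null lungs. *Aqp1* is expressed in endothelium, whose markers were lower too, and the part of endothelium in the values of *Aqp1* was not tested. *Crispld2*, a secreted protein gene of the fetal mesenchyme that glucocorticoids induce, stood at -0.20 without overlap.

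Of the same list, *Mdk* had the most positive difference. This gene of the growth factor midkine lay at 7.66, 7.48 and 7.68 in WT and 7.89, 7.77 and 8.05 in null lungs. Every null lung was above every WT lung, at a difference of 0.30 (standard error 0.0967, adjusted p = 0.89 from limma). *Vcan*, which encodes the matrix proteoglycan versican, stood at 0.25 with overlap. Surfactant genes differed little, at 0.03 for *Sftpc* (95% interval -0.15 to 0.21), 0.04 for *Sftpb* and -0.11 for *Sftpa1*.

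Several of these lung genes also followed the order of the lungs. With *Tsc22d3*, r was 0.973 for the lipid enzyme gene *Lpcat1*, 0.969 for *Scnn1a*, 0.968 for *Aqp1*, 0.963 for *Scnn1g*, 0.946 for *Scnn1b* and 0.914 for *Aqp5*, so that 6 of the 15 reached 0.9 against 4.45% of all genes. It was -0.959 for *Vcan* and -0.891 for *Mdk*. The pattern was not particular to this list. An r of 0.9 or more with *Tsc22d3* was also reached by 4 of the 14 measured receptor chaperones and coregulators (28.6%). Among the genes of steroid supply 2 of 10 reached it (20.0%), and among the immediate early genes 1 of 12. These correlations describe 6 lungs and were not tested. Proliferation genes ran the opposite way. The list was drawn up after earlier results of these data were known, and none of its 11 measured genes passed the adjusted threshold. All 11 had a higher mean in null than in WT lungs, as did 9810 of the 19938 genes. Their median difference was 0.25, against 0.00 over all genes. Leaving out null replicate 3 took it to 0.095, leaving out WT replicate 3 to 0.118, leaving out WT replicate 1 to 0.445 and leaving out null replicate 2 to 0.40, and it was 0.315 when both lungs that stand apart were dropped. At an unadjusted p under 0.05, 2 were higher, the mitotic kinase gene *Cdk1* at 0.30 and the cyclin gene *Ccnb2* at 0.36. Of the 19938 genes, 490 were higher at that level. The mean of the list stood at 0.207, -0.28 and -0.295 in WT and 0.196, -0.186 and 0.357 in null lungs relative to the mean of the 6. It was highest in the 3 lungs where the average of the 5 response genes without *Sgk1* was lowest. With *Tsc22d3*, r ran from -0.987 for *Ccnb2* to -0.668 for *Pcna*, with a median of -0.89. It was -0.9 or below for 3 of the 11 genes, against 1.16% of all genes. The part of proliferation in the values of the response genes was not tested.

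Other genes known to be induced by glucocorticoids gave a mixed picture. Of 22 listed 21 were measured, 13 lower and 8 higher on average, with a median difference of -0.0633 (-0.075 without WT replicate 1 and null replicate 3, and -0.122 to -0.0367 with single lungs left out), and none passed the adjusted threshold. *Sult1a1*, a sulfotransferase gene, stood at -0.39 (r = 0.958 with *Tsc22d3*), the transglutaminase gene *Tgm2* at -0.14 without overlap and the annexin gene *Anxa1* at -0.17. The clock gene *Per1*, a direct target, stood at 0.02. *Klf15* and *Cebpd*, transcription factor genes, stood at -0.12 and -0.20, and their r with *Tsc22d3* was 0.89 and 0.862. Of the 21 genes 1 (4.76%) reached an r of 0.9 with *Tsc22d3*, against 4.45% of all genes. Over the list r ran from -0.722 for *Mt2* to 0.958 for *Sult1a1*, with a median of 0.608 against 0.16 over all genes. *Lcn2*, which neutrophils also express, had the largest positive difference, at 0.91 (standard error 0.309, unadjusted p = 0.0166, adjusted p = 0.89 from limma), with 7.96, 8.36 and 8.66 in WT and 9.94, 8.57 and 9.21 in null lungs. The metallothionein gene *Mt2* lay at 7.94 to 8.53 in the other 5 lungs and at 9.48 in null replicate 3, the lung with the highest *Alb*. Its next highest value (8.53) was in null replicate 1, the lung with the lowest *Alb* (4.78). The part of liver signals in the values of *Mt2* was not tested.

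The chaperones and coregulators of the receptor differed little. Of 17 listed 14 were measured, 11 lower and 3 higher on average, within -0.18 (*Bag1*) and 0.06 (*Hsp90aa1*), with a median of -0.0367 (-0.0425 without WT replicate 1 and null replicate 3, and -0.065 to -0.0142 with single lungs left out), and none lay under an unadjusted p of 0.05. The coactivator gene *Ncoa1* stood at -0.15, with every null lung below every WT lung, *Ep300* at -0.11 and *Ncoa2* at -0.10. Among the chaperones *Ptges3*, picked after its values were seen, lay at 9.19 in WT replicate 1, 8.97 in null replicate 3 and 8.38 to 8.58 in the other lungs. *Hsp90aa1* was likewise highest in these 2 lungs (8.90 and 8.89). *Bag1* was not, being highest in WT replicate 1 (7.39) and lowest in null replicate 3 (6.95). Genes of steroid supply gave no difference past the threshold, with 6 of 10 lower, a median difference of -0.0817 and none under an unadjusted p of 0.05. Leaving out WT replicate 3 took that median to -0.0233, null replicate 3 to -0.0242, WT replicate 2 to -0.0383, null replicate 2 to -0.0417 and WT replicate 1 to -0.155, and it was -0.175 when both lungs that stand apart were dropped. *H6pd*, whose enzyme feeds NADPH to the product of *Hsd11b1*, stood at -0.15 (r = 0.975 with *Tsc22d3*), and *Serpina6*, the gene of the plasma carrier of corticosterone, at 0.38 from a low signal. The r of *H6pd* was the highest of these 10 genes, which ran down to -0.306 with a median of 0.324. *Cyp17a1* stood at -0.22 and *Star* at -0.13. The adrenal cortex genes *Cyp11b1*, *Cyp11b2* and *Cyp21a1* had mean signals of 3.50, 4.04 and 3.48, and *Hsd3b1* one of 2.14.

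**Figure D4:**
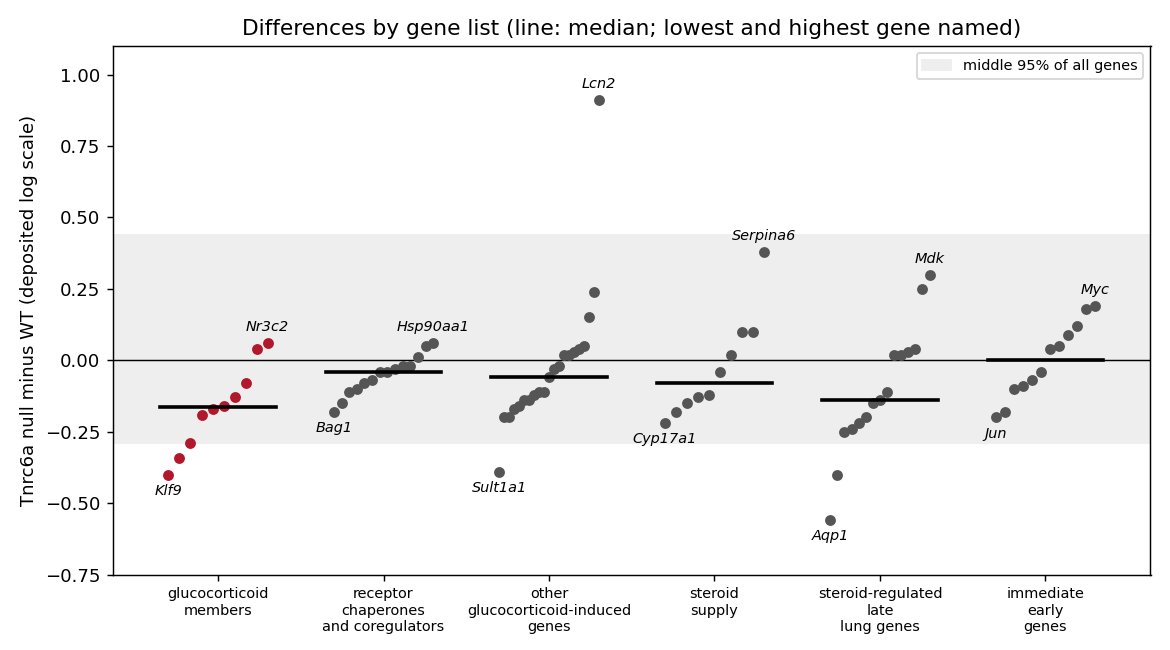
Differences between genotypes for the 10 genes and for the 5 lists around them other than proliferation. The vertical axis is the null mean minus the WT mean on the deposited log scale, with 1 point per gene, the black lines are medians and the band holds the middle 95% of all genes (-0.29 to 0.44). The medians are -0.165 for the 10 genes and -0.14 for the late lung genes, and between -0.0817 and 0.00 for the other 4 lists.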

How the data were processed

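Total RNA of single E18.5 lungs was hybridised by the authors to Affymetrix whole-transcript mouse gene arrays. They deposited 1 log2 value, so named in the labels, for each of 35045 probe sets and each of 6 lungs. MAS5 is the tool in the submitters' processing notes (version and settings not stated in these sources). The array medians lay between 4.98 and 5.03 and the values were used as deposited. The number of arrays limits the precision. Of the probe sets, 21789 carried 1 gene symbol (21698 updated by Entrez ID), 1621 several. The brightest probe set stood for a gene, which gave 19938 genes.

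Null and WT lungs were compared with limma 3.58.1 in R 4.3.3 (eBayes with a trend), with Benjamini-Hochberg adjustment over all genes and a threshold of 0.05. The procedure was tested on simulated data. Correlations over lungs used exact two-sided permutation tests in Python 3.11.15. Groups and replicate numbers come from the sample titles. The p-values from limma weigh a difference against the spread between these embryos, which eBayes moderates with that of other genes. Those of the correlations come from reordering the lungs.

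The members and lists were chosen with earlier results of these data known. Named are all members, *Tnrc6a*, up to 4 genes of smallest p in each list, markers, and the 3 genes most like *Nr3c1*. Other list genes named (*Scnn1a*, *Crispld2*, *Vcan*, *Lpcat1*, *Aqp5*, the surfactant genes, *Per1*, *Klf15*, *Cebpd*, *Mt2*, *Hsp90aa1*, *Ptges3*, *Hsd3b1*) were chosen after their values were seen. Alternatives were 2 quantile normalizations, centring, a filter on dim genes, mean probe sets, eBayes without trend or robust, array weights, the replicate block, the methods' t-test (the two-sample test of the series' design text) and leaving out lungs.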

Additional observations from a re-analysis of the deposited data

How the results depend on the processing

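None of the 10 genes passed the adjusted threshold under any alternative run, the smallest adjusted p being 0.146 for *Tsc22d3* without WT replicate 1 and null replicate 3. The labels do not say whether lungs with the same replicate number share a litter. Deviations of such lungs from their genotype means correlated at -0.295, 0.361 and -0.162. With 3 lungs a genotype these values cannot decide it. With the replicate block 0 of the 10 and 1 gene in all passed. The number of all genes past the threshold was 1 with the values as deposited, 2 with array weights, 0 with the methods' t-test (1102 at its unadjusted threshold, 1081 with limma), 23 without WT replicate 1 and null replicate 3, and 0 to 1 when single lungs were left out, 0 without WT replicate 3. The count of members lower on average ran from 7 to 10. Signs turned for *Nr3c2* with quantile normalization over all probe sets (-0.0369) and over those with 1 symbol (-0.035), for *Hsd11b2* with the former (-0.00833), with array weights (-0.0589) and without the pair of lungs (-0.075), and over single lungs left out for *Hsd11b2* (-0.06 to 0.11) and *Sgk1* (-0.178 to 0.00667). For the other 7 genes no alternative turned the sign. Without genes below the median signal *Nr3c2* and *Hsd11b2* have no value. The shift of the median of all genes was at most 0.0367 in size (-0.0367 with centring). Signal over background was not measured, which limits the dim genes *Nr3c2* and *Hsd11b2*. The cause of these changes was not tested.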
